A study of Homo sapiens with 24 samples.

Results

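The p53 target genes described here are 31 genes that the tumour suppressor p53 is known to switch on, and all 31 had probes on the array. They were matched by symbol and are covered by 45 of the 34127 probes that are not controls. Of the 31 genes, 18 had 1 probe, 12 had 2 and MDM2 had 3. The cells were HCT-116, a human colorectal carcinoma line, stably transfected with a vector for the Tet repressor and a vector from which doxycycline induces DN-Tcf4, a form of the Wnt transcription factor Tcf4 that cannot bind beta-catenin. The arrays were made from cells left without either agent (Ctl), given 5 mM sodium butyrate (NaB), given 4 µg/ml doxycycline (Doxy) or given both (DoxyNaB), with 17.5 hr of butyrate. Every group, the untreated cells included, carried both vectors, and the transfected line came from a single clone, so that a feature of that clone cannot be told apart from a feature of HCT-116. The treatments were run side by side in 6 experiments, which makes 24 arrays.

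The p53 protein binds DNA as a tetramer and activates genes whose regulatory regions hold its response element, a pair of half-sites. In most cells it is kept low by MDM2, a ubiquitin ligase that is itself a p53 target, and it rises when DNA is damaged or when other stress blocks that loop. Its targets arrest the cell cycle, repair DNA, change metabolism and promote cell death. HCT-116 cells are widely used to study this response. Butyrate, a short-chain fatty acid made from dietary fiber by bacteria of the colon, inhibits histone deacetylases.

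Levels are log2 ratios of a probe's signal to the signal at the 75th percentile of its array, controls left out, so a level of 0 equals that percentile and a difference of 1 is 2-fold. A probe's level can be compared between arrays but not with that of another gene. In all, 39 probes of 29 members were tested, those that the scanner software rated well above background in every experiment for some treatment. SPATA18, a mitochondrial quality control gene, and TRIM22, an interferon-responsive antiviral factor, were not tested, since no probe of theirs met that rule. No tested probe of a member was saturated on any array. A gene is represented by its tested probe with the highest mean level, and changes are log2 differences ± SE from limma over the 6 experiments. In the butyrate comparisons a gene was called at a fold over 2 and an adjusted p under 0.01. The effects of doxycycline and the interaction were called at an adjusted p under 0.01 alone.

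Experiment 1 stood apart. Its arrays without butyrate and its arrays with butyrate lay on different slides, so that slide and butyrate cannot be told apart there. In 14 cases the level of a member on 1 array lay far from the others of its treatment, and 13 of these cases belonged to experiment 1. The other experiments each had their 4 arrays on 1 slide, with experiments 2 to 4 in 1 scan and experiments 5 and 6 in another. The called members are therefore given with and without experiment 1. Between 52.7% and 62.6% of spots were well above background in experiments 1, 5 and 6, and between 78.4% and 88.1% in experiments 2 to 4. In experiments 2 to 4 the net signal of negative controls was 112.1 to 161 on NaB arrays and 63.08 to 76.9 on Ctl arrays. In experiments 5 and 6 it was 48.82 to 49.91 and 48.38 to 49.51. The part of this background in the changes of dim probes was not tested. The line was checked against markers. Of 8 colorectal epithelial genes, 6 were above background on all 24 arrays and VIL1 on 5. EPCAM was above background on all 22 arrays where it had a value, its other spots being dropped for an outlier flag. Of 6 fibroblast genes, none was above background on all 24 and COL3A1 was on 0. COL1A1, however, was above background on all 23 arrays where it had a value, and it rose by 1.09 in NaB. Of 4 leukocyte genes CD68 alone was on all 24. The part of other cell types in the results was not tested. DN-Tcf4 derives from TCF7L2, which therefore checks the induction. Its 2 downstream probes were 4.46 and 2.96 higher in DoxyNaB than in NaB (adjusted p = 1.77e-06 and 3.65e-05), and the upstream probe differed by -1.25 (adjusted p = 0.00569). Between Doxy and Ctl the downstream probes differed by 0.30 and -0.17 (adjusted p = 0.861 and 0.921), so that a rise with doxycycline was detected in the presence of butyrate and not in its absence. Between NaB and Ctl, without doxycycline, the downstream probes differed by 1.90 and 0.91 (adjusted p = 4.68e-04 and 0.0294) and the upstream probe by -0.08 (adjusted p = 0.777).

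The regulatory sequence of the members is shown here because p53 acts through it. Promoter windows of 300 bases, 250 before and 50 after a start site, were read from RefSeq (GRCh38.p14) and were found for 25 of the 31 members, in 37 windows. LIF, PHLDA3, GADD45A, RRM2B, TP53INP1 and TRIM22 are not in that table. An exact match to the p53 half-site, a palindrome of 10 bases that reads the same on either strand, was present in 6 of the 25 members (24%) and in 8.06% of the 27305 genes with a window. A pair of half-sites with at most 13 bases between them was present in DDB2 among the members and in 10 of all 35116 windows. The 6 stretches follow, each of 150 bases, 5′ to 3′ on the strand of the gene, with the half-sites in capitals.
AEN (chr15:88621190-88621339, + strand): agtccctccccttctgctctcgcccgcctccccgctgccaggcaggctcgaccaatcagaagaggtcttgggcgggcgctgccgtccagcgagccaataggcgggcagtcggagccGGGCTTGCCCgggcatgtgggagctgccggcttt
DDB2 (chr11:47214852-47215001, + strand): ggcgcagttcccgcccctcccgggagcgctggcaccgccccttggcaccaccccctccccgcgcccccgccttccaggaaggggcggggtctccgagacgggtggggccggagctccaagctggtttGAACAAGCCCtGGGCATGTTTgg
FDXR (chr17:74872995-74873144, - strand): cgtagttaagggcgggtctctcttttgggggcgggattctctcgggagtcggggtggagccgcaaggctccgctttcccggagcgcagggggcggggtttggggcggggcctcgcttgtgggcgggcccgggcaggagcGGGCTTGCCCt
PLK2 (chr5:58460087-58460236, - strand): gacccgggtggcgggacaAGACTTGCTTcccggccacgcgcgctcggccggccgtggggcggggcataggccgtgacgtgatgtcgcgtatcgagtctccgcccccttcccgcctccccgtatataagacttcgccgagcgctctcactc
RPS27L (chr15:63157478-63157627, - strand): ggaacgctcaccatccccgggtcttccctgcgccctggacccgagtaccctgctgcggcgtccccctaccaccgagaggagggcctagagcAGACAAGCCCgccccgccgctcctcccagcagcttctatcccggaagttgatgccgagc
SESN1 (chr6:109008989-109009138, - strand): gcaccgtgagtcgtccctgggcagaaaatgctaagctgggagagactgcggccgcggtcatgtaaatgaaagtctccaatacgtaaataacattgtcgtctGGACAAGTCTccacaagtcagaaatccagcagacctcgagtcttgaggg
Counted from the start site, the match began at position -34 in AEN, at -132 in PLK2, at -59 in RPS27L, at -49 in SESN1 and at -11 in FDXR. In DDB2 the pair began 6 and 17 bases after it, separated by 1 base. A match says only that these letters are present, and a missing match only that they are not in this window.

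The GC box (GGGCGG on either strand), which Sp1-family factors bind and which occurs in many promoters, was found in 23 of the 25 members (92.0%) and in 48.3% of all genes with a window. The same 150 bases before the start site are shown for PLK3, GDF15 and TP53I3, on which results below turn, with GC boxes in capitals. TP53I3 has no GC box in this stretch, and none of these 3 genes has an exact half-site in its window.
GDF15 (chr19:18386008-18386157, + strand): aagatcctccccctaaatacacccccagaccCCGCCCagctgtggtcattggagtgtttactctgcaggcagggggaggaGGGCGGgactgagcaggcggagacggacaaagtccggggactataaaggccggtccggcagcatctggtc
PLK3 (chr1:44800227-44800376, + strand): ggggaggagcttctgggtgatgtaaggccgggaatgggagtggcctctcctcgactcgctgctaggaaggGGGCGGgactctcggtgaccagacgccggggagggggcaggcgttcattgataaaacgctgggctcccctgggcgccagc
TP53I3 (chr2:24084835-24084984, - strand): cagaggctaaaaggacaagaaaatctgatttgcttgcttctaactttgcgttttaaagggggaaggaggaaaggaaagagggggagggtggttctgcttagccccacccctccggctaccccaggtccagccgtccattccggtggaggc

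The first question was how butyrate changed these genes (NaB/Ctl). They did not move as a block: LIF, PHLDA3 and TP53I3 fell more than 2-fold, PLK3 and TP53INP1 rose more than 2-fold, and the other 24 tested members were not called. Among all 15159 genes tested, 21% were called higher and 11.5% lower, so the 2 members higher (6.9%) and 3 lower (10.3%) were not more frequent than genes at large. Most members passed the adjusted p at smaller folds: 13 were lower and 8 higher at an adjusted p under 0.01, where the shares over all genes were 29% lower and 40.6% higher. The median change was -0.04 over the 29 members and 0.17 over all genes tested, and 19 of the 29 members lay below the latter. This gap depended on the filter for dim probes and on the scaling. Among probes above background on every array with a value, the medians were -0.01 over 28 members and 0.07 over 12358 genes. There 16 members lay below the latter, and 1918 of the 12358 genes were called higher. After quantile normalization the medians were -0.05 and -0.01, with 15 of 29 members below. Only 3 members lay outside the 5th to 95th percentile of all genes, -1.51 to 2.33, all of them below it: LIF, PHLDA3 and TP53I3. The direction of the smaller changes depended on the scaling. When arrays were scaled to their median, the median of all genes moved by -0.74, no member was called higher and 13 were called lower. Of all genes called, 64.7% were higher with the 75th percentile, 53.7% after normexp correction, 50.6% after quantile normalization and 22.2% with the median. The 13 members lower at an adjusted p under 0.01 were so in 11 cases after normexp background correction, in 10 after quantile normalization and in 13 after median scaling, while the 8 higher were so in 5, 6 and 0 cases. Under median scaling 4 of those 8 had the opposite sign.

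**Figure D1:**
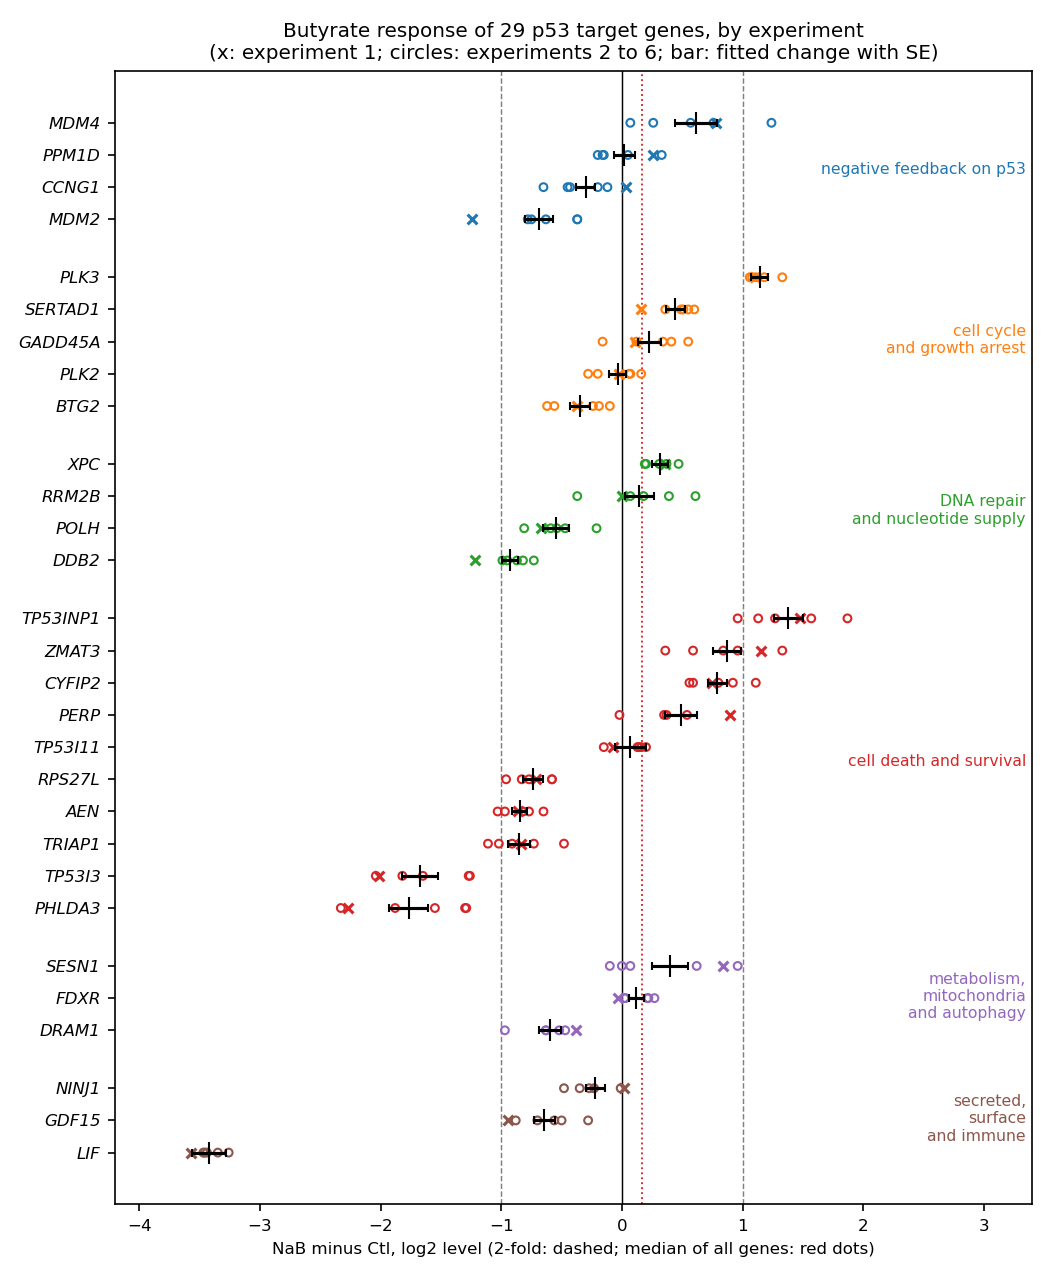
Change of the 29 tested p53 target genes in butyrate (log2 level, NaB minus Ctl), grouped by role. Crosses are experiment 1, circles experiments 2 to 6, and bars the fitted change with SE; dashed lines mark 2-fold and the dotted red line the median of all genes, 0.17. LIF, PHLDA3 and TP53I3 lie left of the 2-fold line in all 6 experiments.

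LIF, a secreted cytokine of the IL-6 family (probe at NCBI36 chr22:28966713-28966772), changed most among the members. Its levels ran from 0.14 to 1.20 (median 0.38) in Ctl and from -3.18 to -2.37 (median -3.02) in NaB. The ranges were far apart. The fitted change was -3.42 ± 0.14, a 10.7-fold fall (adjusted p = 2.31e-13), and it was between -3.26 and -3.57 in the 6 experiments. It was -3.35 in experiments 2 to 4, -3.47 in experiments 5 and 6, and -3.39 without experiment 1. This probe was above background on all 6 NaB arrays and on 5 of 6 DoxyNaB arrays, and normexp correction gave -2.57. The fall rests on this 1 probe. The other LIF probe was too dim to be tested, being above background on 1 to 5 arrays of each treatment. Its mean level was -4.44 in Ctl and -4.49 in NaB.

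PHLDA3, a pleckstrin-homology protein that restrains Akt (probe at chr1:199701729-199701788), had levels from 1.19 to 1.51 (median 1.41) in Ctl and from -0.88 to 0.08 (median -0.31) in NaB. No NaB array reached the lowest Ctl array. The change was -1.77 ± 0.17, 3.41-fold (adjusted p = 1.94e-08). TP53I3, also called PIG3, a quinone oxidoreductase tied to p53-dependent cell death (probe at chr2:24154008-24154067), ran from 0.62 to 1.32 (median 0.69) in Ctl and from -1.32 to -0.63 (median -0.80) in NaB. These ranges did not overlap either. It fell by 1.68 ± 0.15, 3.19-fold (adjusted p = 1.01e-08), and its other tested probe gave -1.65 (adjusted p = 4.00e-07). For both genes the size differed between scans: PHLDA3 changed by -1.38 in experiments 2 to 4 and by -2.10 in experiments 5 and 6, TP53I3 by -1.39 and -1.93. Without experiment 1 the values were -1.67 and -1.61.

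TP53INP1, a nuclear protein that promotes phosphorylation of p53 and also acts in autophagy, rose. Its levels ran from -0.47 to 0.50 (median 0.08) in Ctl and from 1.21 to 1.54 (median 1.46) in NaB, with no overlap. The change was 1.38 ± 0.12, 2.60-fold (adjusted p = 6.56e-09), with 1.12 in experiments 2 to 4, 1.72 in experiments 5 and 6, and 1.36 without experiment 1. PLK3, a stress-responsive polo-like kinase (probe at chr1:45044181-45044241), ran from 1.44 to 1.88 (median 1.66) in Ctl and from 2.51 to 3.14 (median 2.80) in NaB, again apart. It rose by 1.14 ± 0.07, 2.21-fold (adjusted p = 6.74e-11), by between 1.06 and 1.33 in each experiment and by 1.15 without experiment 1. Under median scaling neither gene was called, with 0.65 for TP53INP1 (adjusted p = 0.0208) and 0.41 for PLK3 (adjusted p = 0.105), both above the all-gene median of -0.57 on that scale.

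**Figure D2:**
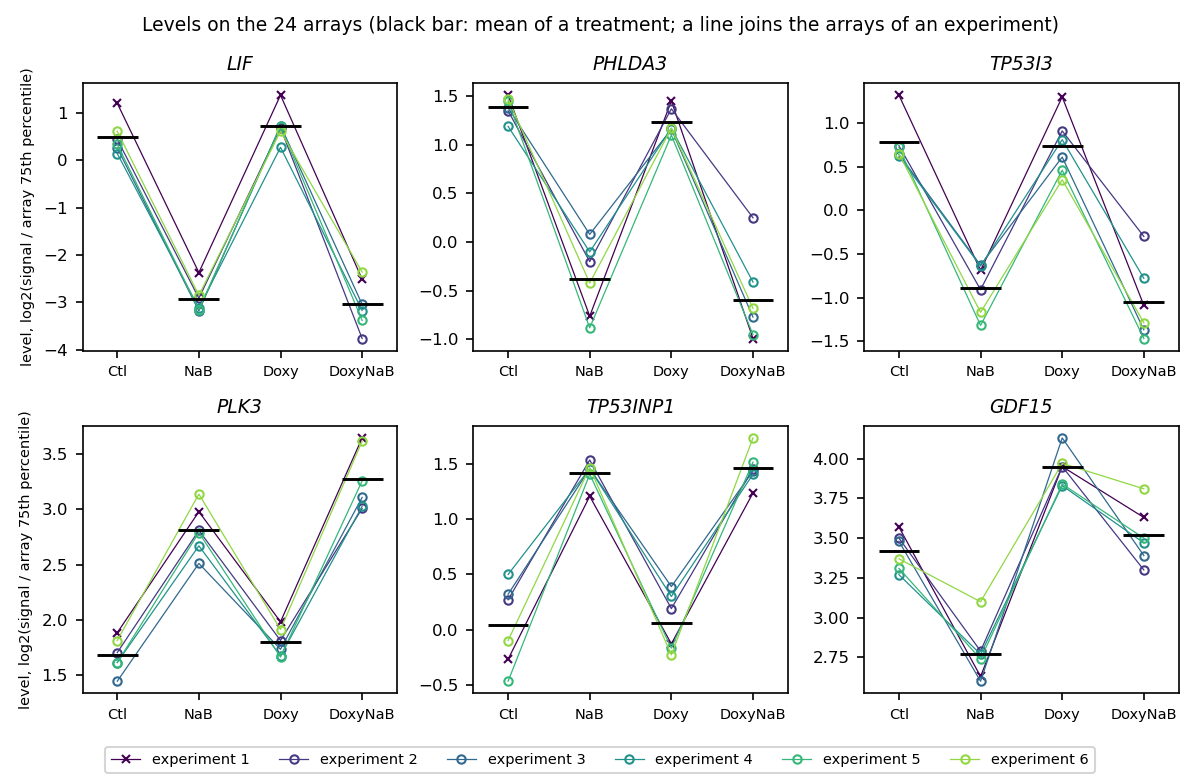
Levels of 6 p53 target genes on the 24 arrays, by treatment; each y axis is the log2 of the signal over the array's 75th percentile and has its own range. Lines join the arrays of an experiment, crosses mark experiment 1 and black bars are treatment means. The NaB and DoxyNaB arrays of LIF lie between -3.76 and -2.36, and those of Ctl and Doxy between 0.14 and 1.37.

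The genes that feed back on p53 split. MDM2, which ubiquitinates p53, was measured by 2 tested probes that gave different answers. The representative probe (NCBI36 chr12:67525158-67525217) begins with the first of the runs below, and the other, 5321 bases upstream (chr12:67519837-67519896), with the second. They are shown to identify the stretches of the transcript that were read, 30 of 60 bases each.
MDM2, downstream probe: tatgatggtaaccacaagttgttaatggca
MDM2, upstream probe: aagccctgcccagtatgtagacaaccaatt
The downstream probe ran from -1.31 to -0.49 (median -0.83) in Ctl and from -2.55 to -1.16 (median -1.33) in NaB. The lowest NaB value was that of experiment 1, and the ranges overlapped. It changed by -0.69 ± 0.12 (adjusted p = 3.50e-05), lower in 6 of 6 experiments, short of 2-fold, and by -0.58 without experiment 1. The upstream probe ran from -2.59 to -1.46 (median -1.76) in Ctl and from -1.63 to -1.31 (median -1.56) in NaB, a change of 0.32 (adjusted p = 0.0337) that was 0.97 in experiment 1 and between -0.13 and 0.42 in the others. Averaged over both probes the change was -0.19. The third MDM2 probe was not tested, being above background on 2 to 5 of the 6 arrays of each treatment.

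**Figure D3:**
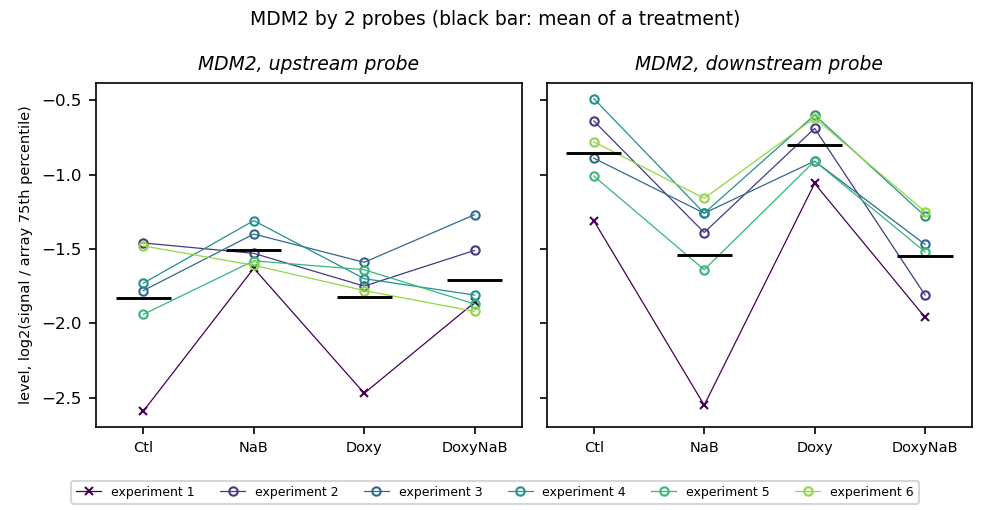
Levels of MDM2 on the 24 arrays by its 2 tested probes (y axis, log2 of the signal over the array's 75th percentile; x axis, treatment). Crosses are experiment 1 and black bars treatment means. The downstream probe was lower in NaB than in Ctl in 6 of 6 experiments, while the upstream probe was higher in 4 of 6.

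MDM4, the MDM2 relative that masks the activation domain of p53, changed by 0.61 ± 0.17 (adjusted p = 0.00375), but by 0.34 after normexp correction (adjusted p = 0.146) and -0.12 under median scaling. PPM1D, the phosphatase WIP1 that ends the damage response, changed by 0.02 ± 0.09 (adjusted p = 0.835), and its other tested probe gave 0.32 (adjusted p = 0.0311). CCNG1, cyclin G1, which recruits a phosphatase to MDM2, changed by -0.30 ± 0.08 (adjusted p = 0.00253), and its other tested probe gave -0.33 (adjusted p = 0.0302). CCNG1 did not pass after normexp correction (-0.19, adjusted p = 0.229) or quantile normalization (-0.05, adjusted p = 0.577). None of the 4 was called.

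Among the 5 cell cycle genes PLK3 was the 1 called. SERTAD1, a cyclin-dependent kinase 4 binding protein, changed by 0.44 ± 0.08 (adjusted p = 4.47e-05), and by -0.29 under median scaling. BTG2, an antiproliferative cofactor of mRNA deadenylation, changed by -0.35 ± 0.08 (adjusted p = 8.96e-04) and was lower in 6 of 6 experiments. It did not pass after normexp correction (-0.26, adjusted p = 0.104) or quantile normalization (-0.16, adjusted p = 0.0303). GADD45A, a growth arrest protein that activates stress kinases, changed by 0.23 ± 0.10 (adjusted p = 0.0413), and PLK2, a polo-like kinase of the centriole cycle, by -0.04 ± 0.07 (adjusted p = 0.671). The last 2 did not pass.

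The repair genes gave changes of both signs, all under 2-fold. DDB2, the damage sensor of nucleotide excision repair whose promoter holds the half-site pair shown above, ran from 1.67 to 2.09 (median 1.73) in Ctl and from 0.78 to 0.99 (median 0.86) in NaB. Its ranges were apart, and the change of -0.93 ± 0.06 (adjusted p = 2.37e-10) was just short of the threshold. The second DDB2 probe gave -0.87 (adjusted p = 4.49e-08). POLH, the polymerase that copies past ultraviolet lesions, changed by -0.55 ± 0.11 (adjusted p = 1.92e-04), and by -0.85 after quantile normalization, where it did not pass (adjusted p = 0.0139). XPC, which partners DDB2 in damage recognition, went the other way, by 0.32 ± 0.06 (adjusted p = 1.83e-04), higher in 6 of 6 experiments but -0.42 under median scaling. RRM2B, the ribonucleotide reductase subunit p53R2, changed by 0.15 ± 0.12 (adjusted p = 0.289).

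The 10 genes of cell death and survival held 5 that were lower and 4 that were higher at an adjusted p under 0.01, where 29% and 40.6% of all genes passed. Besides PHLDA3 and TP53I3, the lower ones were TRIAP1, a lipid-transfer protein of mitochondria (-0.85 ± 0.09, adjusted p = 1.31e-07), AEN, an apoptosis-enhancing nuclease (-0.85 ± 0.06, adjusted p = 1.09e-09), and RPS27L, a ribosomal protein relative (-0.74 ± 0.08, adjusted p = 1.76e-07). The 2 AEN probes disagreed in the call, since the other gave -1.18 (adjusted p = 2.11e-09), past 2-fold. AEN and RPS27L are also among the members with a half-site in the window. Besides TP53INP1, the higher ones were ZMAT3, an RNA-binding zinc finger protein (0.87 ± 0.12, adjusted p = 1.85e-06), CYFIP2, a subunit of the actin-regulating WAVE complex (0.79 ± 0.08, adjusted p = 4.03e-08), and PERP, a desmosomal membrane protein (0.49 ± 0.13, adjusted p = 0.00268). ZMAT3 had 0.22 after normexp correction (adjusted p = 0.428) and 0.14 under median scaling (adjusted p = 0.463). It changed sign under quantile normalization (-0.14, adjusted p = 0.496), and PERP did so under median scaling (-0.17). For PERP the Ctl and Doxy arrays of experiment 2 carried an outlier flag and were left out. TP53I11 changed by 0.07 ± 0.13 (adjusted p = 0.634).

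Of the metabolic and autophagy genes, DRAM1, a lysosomal membrane protein of autophagy, changed by -0.60 ± 0.09 (adjusted p = 1.10e-05). FDXR, the ferredoxin reductase of mitochondria, changed by 0.12 ± 0.06 (adjusted p = 0.0909), and SESN1, a sestrin that restrains mTORC1, by 0.40 ± 0.15 (adjusted p = 0.0227). Both have a half-site in a promoter window, and neither passed. Of the secreted and surface genes besides LIF, GDF15, a stress-induced hormone of the TGF-beta family, changed by -0.64 ± 0.09 (adjusted p = 2.02e-06). NINJ1, a membrane protein that ruptures the plasma membrane of dying cells, changed by -0.22 ± 0.08 (adjusted p = 0.0160).

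Other genes of the pathway were counted as lists. Of 21 tested regulators of p53, 6 were lower (28.6%) and 1 higher (4.76%) at over 2-fold, beside 11.5% and 21% of all genes, with a median of -0.37 beside 0.17. The largest falls were those of CHEK1, a checkpoint kinase (-1.84), and CDKN2A, whose locus encodes p16 and ARF (-1.80), and the 1 gene higher was PPP1R13B, the p53 cofactor ASPP1 (2.02). Of 33 tested p53 targets outside the 31, 5 were higher (15.2%) and 3 lower (9.09%), below the 21% and 11.5% of all genes, with a median of 0.11. CD82, a tetraspanin (2.73), rose most, and FAS, a death receptor (-2.28), and BAX, the pore-forming death protein (-1.22), fell most. CDKN1A, which encodes p21, changed by 0.57 ± 0.11 (adjusted p = 1.73e-04), short of 2-fold, and by -0.16 under median scaling.

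The second question was how butyrate acted when doxycycline was also present (DoxyNaB/Doxy). The same 5 members were called as without doxycycline, and CYFIP2 was added. LIF changed by -3.77 ± 0.14, PHLDA3 by -1.83 ± 0.17, TP53I3 by -1.79 ± 0.15, PLK3 by 1.49 ± 0.07 and TP53INP1 by 1.41 ± 0.12, with adjusted p from 1.88e-12 to 1.27e-08 beside 6.59e-14 for LIF. Without experiment 1 the values were -3.74, -1.71, -1.67, 1.45 and 1.42. CYFIP2 ran from 0.14 to 0.34 (median 0.18) in Doxy and from 0.89 to 1.60 (median 1.27) in DoxyNaB, a change of 1.02 ± 0.08 (adjusted p = 1.19e-09) that sat at the fold threshold and was called in 16 of 21 alternatives. It was not called without experiment 1 (0.98) or 5 (1.00), after normexp correction (0.94), under median scaling (0.48, adjusted p = 0.07) or within experiments 2 to 4 (0.88). The other tested CYFIP2 probe gave 1.08 (adjusted p = 3.87e-10), past 2-fold, and 0.94 in NaB/Ctl (adjusted p = 2.44e-09), short of it. With CYFIP2, 3 members were called higher and 3 lower, where 18.7% of all genes were called higher and 12.5% lower. At an adjusted p under 0.01 of any fold 9 were higher and 13 lower, against 38.1% and 30.3% of all genes.

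LIF stood between 0.27 and 1.37 (median 0.70) in Doxy and between -3.76 and -2.36 (median -3.11) in DoxyNaB. PHLDA3 went from 1.10 to 1.45 (median 1.17) in Doxy to between -0.99 and 0.25 (median -0.73) in DoxyNaB, and TP53I3 from 0.35 to 1.3 (median 0.71) to between -1.47 and -0.30 (median -1.19). For these 3 genes no DoxyNaB array reached the Doxy arrays. TP53INP1 went from -0.23 to 0.39 (median 0.03) in Doxy to between 1.24 and 1.74 (median 1.45), and PLK3 from 1.66 to 1.98 (median 1.77) to between 3.01 and 3.65 (median 3.18), both without overlap. The downstream MDM2 probe changed by -0.75 ± 0.12 (adjusted p = 1.41e-05), lower in 6 of 6 experiments, with ranges of -1.06 to -0.60 in Doxy and -1.96 to -1.25 in DoxyNaB that did not overlap, and the upstream probe by 0.12 (adjusted p = 0.427). Among the smaller changes, TRIAP1 had -0.87, AEN -0.81, DDB2 -0.76, RPS27L -0.60 and DRAM1 -0.57, and SERTAD1 had 0.74 and ZMAT3 0.71, all past the adjusted p. The other AEN probe had -1.02 (adjusted p = 1.61e-08), past 2-fold. Under median scaling SERTAD1 had 0.20 (adjusted p = 0.422). ZMAT3 had -0.05 after quantile normalization (adjusted p = 0.812), 0.16 under median scaling (adjusted p = 0.403) and 0.61 after normexp correction (adjusted p = 0.0212), and DRAM1 had -0.37 after normexp correction (adjusted p = 0.0195). BTG2, the antiproliferative gene with -0.35 without doxycycline, had 0.01 with it (adjusted p = 0.951), and GADD45A had 0.42 ± 0.10 (adjusted p = 7.68e-04) where it had 0.23 without, but -0.12 under median scaling.

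Gene by gene, the 2 butyrate responses were close. They share no array, although the arrays of experiments 2 to 6 share a slide within each experiment. Of 29 members, 26 had the same sign in both, and the 17 that passed the adjusted p in both all did; over all genes 92.8% had the same sign. Pearson's r across the 29 members was 0.96, and 0.93 without LIF, with 0.97 over all genes tested; genes are not independent replicates, and no test was made. MDM4 passed without doxycycline and had -0.10 ± 0.17 with it (adjusted p = 0.610), and PERP had 0.49 and -0.28. PPM1D had 0.02 without and 0.47 ± 0.09 with doxycycline (adjusted p = 1.10e-04), and PLK2 -0.04 and -0.40 ± 0.07 (adjusted p = 9.07e-05). The other tested PPM1D probe did not show this contrast, with 0.321 without and 0.365 with doxycycline (adjusted p = 0.0311 and 0.0162).

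**Figure D4:**
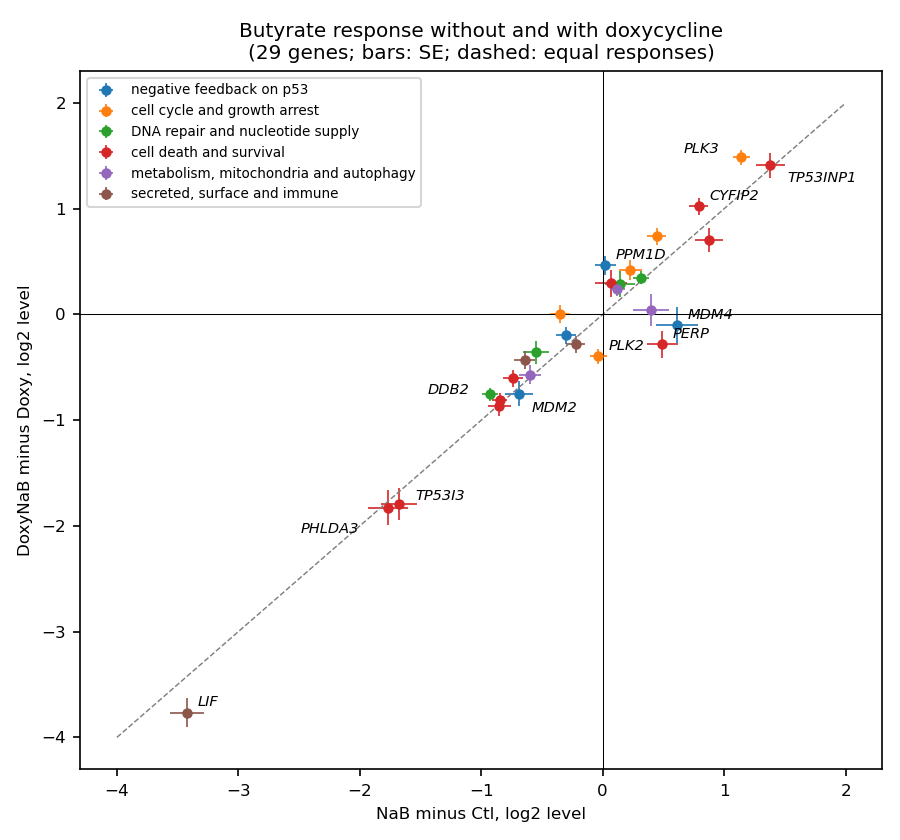
Butyrate response of 29 p53 target genes without doxycycline (x axis, NaB minus Ctl) and with it (y axis, DoxyNaB minus Doxy), both as log2 level with SE, coloured by role. The dashed line marks equal responses. LIF, PHLDA3, TP53I3, PLK3 and TP53INP1 lie near it, while PERP and MDM4 lie below it and PPM1D above.

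Whether the responses differed was tested by the interaction, the NaB/Ctl change minus the DoxyNaB/Doxy change. With limma 0 of 29 members passed, where 1.11% of all genes were higher and 0.244% lower. At an unadjusted p under 0.05 there were 8 members (12.5% of all genes), and with the methods' t-test 4 passed an unadjusted p of 0.01, PERP, PLK2, PLK3 and PPM1D, while 0 passed after adjustment. The lowest adjusted p was that of PERP (0.77 ± 0.18, adjusted p = 0.0358), higher in the 5 of 5 experiments with a value. PPM1D had -0.44 ± 0.12 (adjusted p = 0.0794), PLK2 0.36 ± 0.10 (adjusted p = 0.0897) and PLK3 -0.34 ± 0.10 (adjusted p = 0.0955), each with its sign in 6 of 6 experiments, although the other tested PPM1D probe gave -0.04. These values miss the threshold, which does not show that the responses were equal.

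The third question was what doxycycline did in cells without butyrate (Doxy/Ctl). A rise of the TCF7L2 probes was not detected in the arrays labelled Doxy, as given above, and the comparison is of doxycycline treatment. GDF15 (probe at chr19:18360890-18360949) was the only member called. It ran from 3.27 to 3.57 (median 3.42) in Ctl and from 3.83 to 4.13 (median 3.95) in Doxy, so that every Doxy array lay above every Ctl array. The rise was 0.53 ± 0.09, 1.44-fold (adjusted p = 0.00279), and it was present in 6 of 6 experiments, from 0.39 to 0.65. It was 0.56 without experiment 1, 0.55 within experiments 2 to 4 and 0.57 within experiments 5 and 6, although neither of the last 2 subsets passed the test, nor did the fits without experiment 3, 4 or 5 (adjusted p = 0.0134, 0.0288 and 0.0357) or the one after normexp correction (0.58, adjusted p = 0.111). Over all genes 0.462% were called higher and 0.0924% lower. The other 28 members lay between -0.20 and 0.45. At an unadjusted p under 0.05 there were 5 members, where 13.3% of all genes were.

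With butyrate present (DoxyNaB/NaB), GDF15 was again higher in doxycycline-treated cells. Its levels were 2.60 to 3.1 (median 2.75) in NaB and 3.30 to 3.81 (median 3.48) in DoxyNaB, which do not overlap. The change was 0.75 ± 0.09, 1.68-fold (adjusted p = 1.84e-05), higher in 6 of 6 experiments, and 0.69 without experiment 1. GDF15 was thus lowest in NaB and highest in Doxy, with Ctl and DoxyNaB between, whose ranges overlapped. PLK3 was higher by 0.46 ± 0.07 (adjusted p = 4.30e-04), 0.42 without experiment 1, on top of its rise in butyrate, with levels of 3.01 to 3.65 (median 3.18) in DoxyNaB that overlap those in NaB. PLK2 was lower by 0.41 ± 0.07 (adjusted p = 0.00212), from 2.69 to 3.29 (median 2.94) in NaB to 2.38 to 2.97 (median 2.51) in DoxyNaB, also overlapping. These were 2 higher and 1 lower, where 0.693% of all genes were higher and 2.03% lower. Without the pairing by experiment PLK3 and PLK2 were not called (adjusted p = 0.0612 and 0.0359), and PLK2 was not called without experiment 1, 2, 4 or 5 (adjusted p from 0.0123 to 0.0198). CYFIP2, PLK2 and PLK3 are singled out here because they were called, after their values were seen, as DDB2 was above for its half-site pair.

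**Figure D5:**
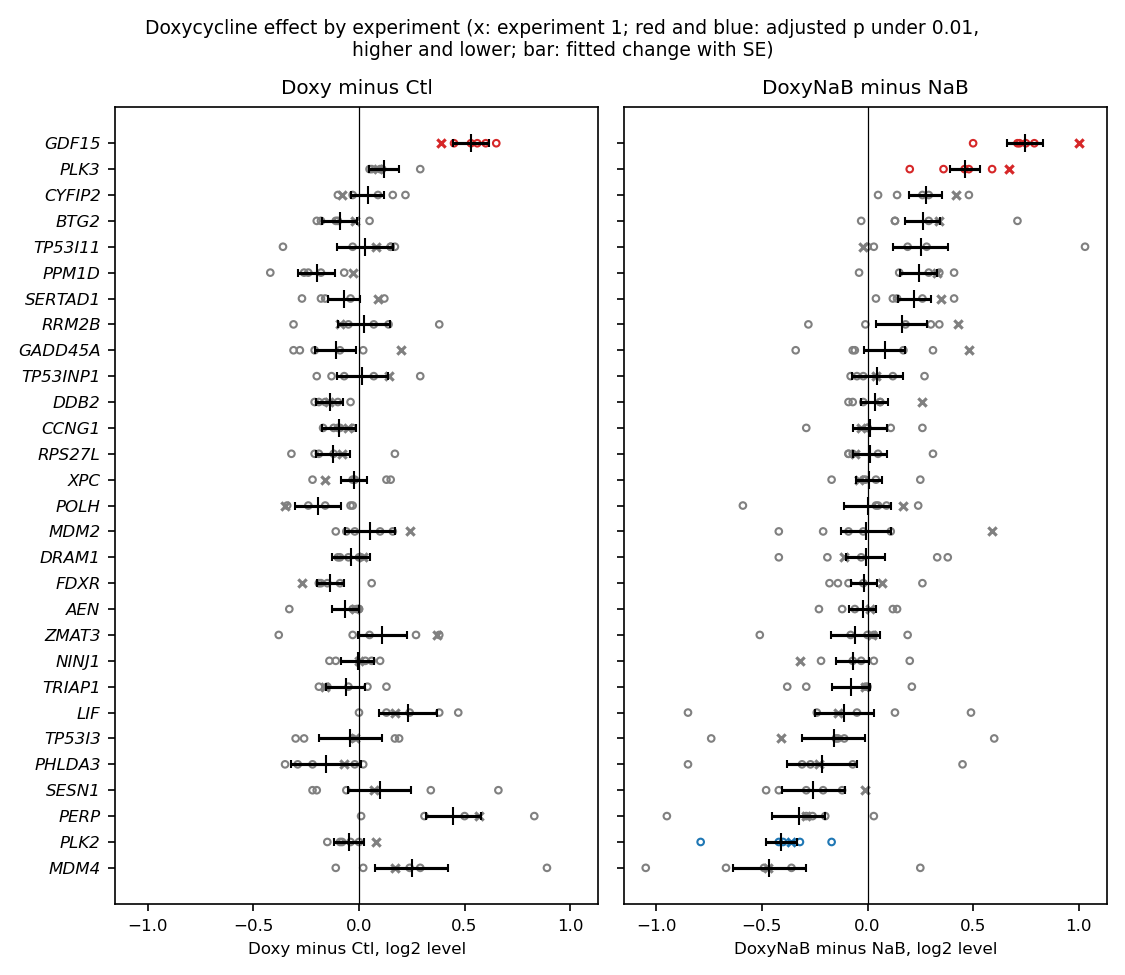
Effect of doxycycline on the 29 p53 target genes without butyrate (left, Doxy minus Ctl) and with it (right, DoxyNaB minus NaB), as log2 level. Crosses are experiment 1, circles experiments 2 to 6, bars the fitted change with SE; red and blue mark an adjusted p under 0.01, higher and lower. GDF15 is right of 0 in all 6 experiments on both sides, by 0.39 to 0.65 and by 0.50 to 1.00.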

How the data were processed

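RNA of 24 cultures of transfected HCT-116 cells, 4 treatments in each of 6 experiments, was labelled in 1 colour and hybridised to 24 Agilent arrays. The deposited files hold, per the file headers, intensity values from Feature Extraction 9.5.3.1, with probe positions on NCBI36; the authors' processed signal was corrected for background and spatial trend array by array, with no scaling between arrays. Signal over background, not read depth, and the number of arrays limit the precision. Outlier-flagged spots and controls were dropped, the spots of a probe were averaged, and probes were named from accessions through RefSeq. Levels are log2 of the processed signal minus that of the array's 75th percentile, which ran from 380.2 to 1323. Of 34127 probes, 18980 for 15159 genes passed the filter and were fitted with limma 3.58.1 (R 4.3.3), all 24 arrays with treatment and experiment as block, with Benjamini-Hochberg adjustment over all probes tested; the fit was tested on simulated data.

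Experiment numbers come from the labels. Levels centred on their treatment correlated by over 0.1 in 35 of 36 same-experiment pairs (0.218 to 0.851, with 1 pair at -0.217). Pairs from different experiments were not compared, and several experiments shared a scan. These correlations therefore cannot tell pairing by experiment from a shared scan. The block was kept because the methods use a paired test. The methods speak of biological replicates; the labels do not say whether cultures were separate, and p-values measure the spread between experiments. The members, gene lists and rules were chosen with earlier results of these data known. Values on every array are described for members called in NaB/Ctl with the same sign in all 6 experiments (at most 5 each way), members called in Doxy/Ctl or past the interaction, and MDM2, and, chosen after their values were seen, for CYFIP2, DDB2 and PLK2; the other members are given by change and call. Motifs were searched in all 35116 RefSeq promoter windows. Alternatives were background correction (normexp, offset 50), quantile and median scaling (floor of 5), filters, blocks, the methods' t-test, probe averaging, a fold of 1.5, scan subsets and leaving out arrays or experiments. Plots used Python 3.11.15 and matplotlib 3.10.9. Some genes of the pathway and marker lists are counted but not reported by name here.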

Additional observations from a re-analysis of the deposited data

Results flagged for a closer look

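Levels of members were looked at in 116 groups of 6 arrays, of which chance would be expected to set a single array apart in about 1 in 20. In 14 groups 1 array lay far from the other 5, and 13 of these were arrays of experiment 1. TP53I11 was high there in Ctl (-0.28, the next array at -1.22), NaB (-0.34) and Doxy (-0.19). NINJ1 was high in Ctl (2.95) and NaB (2.97). SESN1 was low in NaB (-1.59) and Doxy (-2.36). In the NaB array of that experiment MDM2 (-2.55) and RRM2B (-0.92) were low and XPC (0.98) was high. In its Doxy array MDM4 (-2.75) was low and FDXR (4.13) high, and in its Ctl array TP53I3 (1.32) was high. The exception was PLK2, high in the DoxyNaB array of experiment 6 (2.97).

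Among the p53 targets outside the 31, chosen for mention after their values were seen, PMAIP1, which encodes the BH3-only protein NOXA, and SESN2, a sestrin, differed in their butyrate response with and without doxycycline. The interaction of PMAIP1 was 1.20 (adjusted p = 0.00168), from 0.88 in NaB/Ctl and -0.32 in DoxyNaB/Doxy, and that of SESN2 was 0.67 (adjusted p = 0.00458), from 0.76 and 0.09. SESN2 was already higher with doxycycline alone (Doxy/Ctl 0.68, adjusted p = 2.8e-04), and had 0.015 in DoxyNaB/NaB (adjusted p = 0.864). PMAIP1 had 0.57 in Doxy/Ctl (adjusted p = 0.0574) and -0.63 in DoxyNaB/NaB (adjusted p = 0.0114). Neither interaction was called without experiment 2, 4, 5 or 6.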

How the results depend on the processing

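Of the recomputed values of the 7 counts and the median over the members, 140 stayed close and 27 moved. The median NaB/Ctl change, -0.04, lay near 0 and took the other sign within experiments 5 and 6 (0.11), with no filter (0.02), when the 2 butyrate arrays with the brightest negative controls were dropped (0.01) and without replicate 3 (0.01). After normexp correction the members called were 0 in Doxy/Ctl and 0 in DoxyNaB/NaB. Median scaling gave 0 higher and 13 lower in NaB/Ctl, 0 higher and 9 lower in DoxyNaB/Doxy, 0 in Doxy/Ctl, 0 in DoxyNaB/NaB and a median of -0.77; of all genes called in NaB/Ctl, 64.7% were higher, and 22.2% under median scaling, 50.6% after quantile normalization and 53.7% after normexp. With no filter Doxy/Ctl had 0 calls. Without the replicate block, so without the pairing, DoxyNaB/NaB had 1 call, as it had with only the arrays compared; the interaction was not rerun on those. The methods' t-test gave 3 members in Doxy/Ctl and 4 for the interaction unadjusted, and after adjustment 0 in Doxy/Ctl and 0 in DoxyNaB/NaB. A fold of 1.5 gave 5 higher and 10 lower in NaB/Ctl and 5 higher and 8 lower in DoxyNaB/Doxy. Within experiments 2 to 4, and within experiments 5 and 6, Doxy/Ctl and DoxyNaB/NaB had 0 calls each, from fewer arrays. Leaving out each replicate in turn gave 0 to 1 calls in Doxy/Ctl. Where not given by the construction, the cause was not tested. The tested LIF probe was below background on 1 array, and LIF has no value under the filter on all 24. Signal over background limits the dim probes of SPATA18, TRIM22, MDM2 and LIF.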
